A study of Ovis aries with 6 samples.

Results

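Hair follicle stem cell markers are genes whose products have been used to find or to sort the long-lived epithelial cells of the follicle, and their transcripts were followed here in the skin of a fine wool and a coarse wool breed of sheep. The set was chosen by name and holds CD200, CD34, LGR5, LGR6, LHX2, SOX9, LRIG1, NFATC1, CD24 and TBX1. Of these 10 genes, 8 were found by symbol among the 28394 genes listed for each animal, and LGR6 and TBX1 were traced only through their gene identifiers and are described apart. Skin came from behind the shoulder blade of 3 Super Merino (SM) and 3 Small Tail Han (STH) ewes of 1 farm, untreated, with 1 library per animal. The labels give all of them an age of 9 months, whereas the methods of the study give a younger age. The comparison asks how the transcript levels of these genes in whole skin differ between the breeds. Values of single animals are given below in the order 128, 30034, 30126 for SM and XW3, XW5, XW8 for STH.

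The follicle keeps its stem cells in separate compartments. LHX2, SOX9 and NFATC1 are transcription factors of the bulge, the part of the outer root sheath in which slowly cycling cells are held. CD34 marks the bulge in the mouse, and CD200 is a surface protein of bulge cells in the human follicle. LGR5 is a receptor for R-spondins, ligands that strengthen WNT signalling, and marks the lower bulge and the hair germ, from which the follicle regrows. LRIG1 restrains receptors of the ERBB family and marks the junction of follicle, sebaceous gland and epidermis. CD24 is found on keratinocytes outside the bulge and has been used to sort bulge cells by its absence. None of these genes is restricted to the follicle, CD34 being also a marker of blood vessels, and whole skin was sequenced. In such samples fewer cells of a type and less RNA per cell cannot be told apart.

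Library totals lay between 28870583 and 44645091 counts, so that 3 counts correspond to 0.0672 to 0.104 CPM, the counts scaled to a common library size. SM ewe 128 stood apart from the other SM ewes for some of the genes below.

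Transcripts of all 8 genes found by symbol were present in every ewe. Their levels per length were read from the deposited RPKM, in which reads are divided by exon length and library size. In SM skin the order of the mean RPKM was CD34, CD24, SOX9, LGR5, LRIG1, LHX2, CD200 and NFATC1. CD34 was at 51.9 ± 9.09 (SD, n = 3), CD24 at 42.7 ± 7.30 (SD, n = 3), SOX9 at 35.4 ± 4.0 (SD, n = 3) and LGR5 at 21.4 ± 2.65 (SD, n = 3) RPKM. LRIG1 at 18.4 ± 0.567 (SD, n = 3) and LHX2 at 17.3 ± 1.24 (SD, n = 3) followed, with CD200 at 5.70 ± 0.412 (SD, n = 3) and NFATC1 at 2.60 ± 0.0535 (SD, n = 3) RPKM at the end. Of the 7 neighbouring pairs in this order, the animals did not overlap in 3, namely SOX9 over LGR5, LHX2 over CD200, and CD200 over NFATC1. The other neighbours did not differ beyond their spread. Without SM ewe 30126 the number of separated pairs was 5, though leaving out an ewe can only keep or raise it while the order stands.

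In STH skin CD24 stood first, at 67.2 ± 3.62 (SD, n = 3) RPKM, and did not overlap with SOX9 below it, a 1.68-fold step. SOX9 at 39.97 ± 2.79 (SD, n = 3) and CD34 at 38.9 ± 7.11 (SD, n = 3) RPKM were next and overlapped. LGR5 at 28.6 ± 3.85 (SD, n = 3) was separated from CD34 above it and from LHX2 below it, at 16.9 ± 1.12 (SD, n = 3) RPKM. LRIG1 at 16.8 ± 0.680 (SD, n = 3) overlapped with LHX2. CD200 at 3.09 ± 0.0878 (SD, n = 3) and NFATC1 at 2.49 ± 0.607 (SD, n = 3) RPKM again came last and overlapped in this breed, whereas CD200 was 2.20-fold above NFATC1 in SM skin. Among the 17823 genes with a count in at least 1 animal, the RPKM of CD24 stood between the 92.1 and the 96.6 percentile of each library and that of NFATC1 between the 42.4 and the 51.0 percentile.

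**Figure D1:**
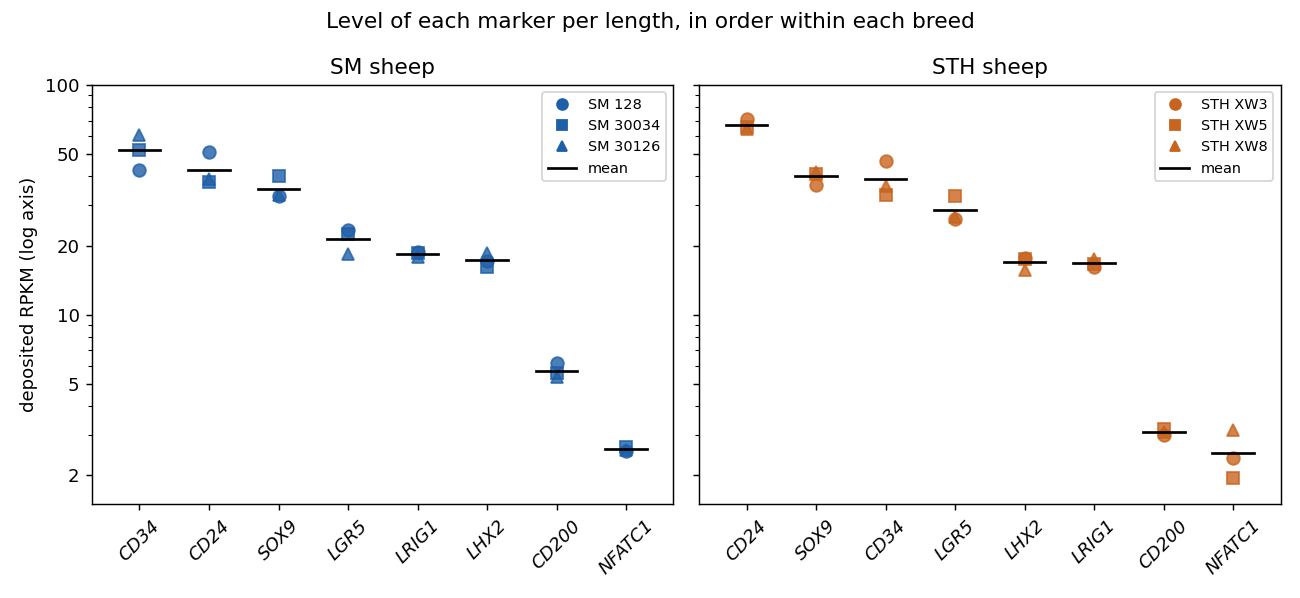
Deposited RPKM of the 8 markers in each ewe, on a log axis, with the genes in order of their mean in SM (left) and STH (right) skin. Points are animals and bars are means. CD34, at 51.9 RPKM, leads in SM and CD24, at 67.2 RPKM, in STH skin, while CD200 and NFATC1 are the lowest in both breeds.

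The breeds were then compared on the deposited counts with the quasi-likelihood test of edgeR, fitted over 15320 genes. To pass, a gene needed a Benjamini-Hochberg adjusted p under 0.05 together with a change of more than 1.5-fold. Log2 differences are given throughout as SM over STH, with their standard error (SE). None of the 8 markers passed, and the share of all genes that did was 0.00%. At an unadjusted p under 0.05 there were 3 of the 8, against 18.0% of all genes tested. CD200 was the marker higher in SM skin (background 7.21%), and CD24 and LGR5 were the markers higher in STH skin (background 10.8%). In each of these 3 genes the animals of the breeds did not overlap, which held for 25.6% of all genes tested, 12.3% with SM above and 13.3% with STH above. Of the 8 markers 4 had a log2 difference above 0, as had 51.4% of all genes, and the median was -0.0011 against 0.018 over all genes. The study had named CD200 and CD24 as differing in these same libraries, so that they are no independent evidence here.

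Other tests drew the line elsewhere. CD200 and CD24 passed both thresholds with DESeq2, 2 of 8 against 2.89% of all genes, and with the likelihood ratio test of edgeR, 2 of 8 against 2.30%. With limma-voom (0.00% of all genes) and with the newer dispersion estimate of edgeR (0.0131%) none of the 8 passed. With 3 animals a breed an exact two-sided permutation test on a single gene cannot go below p = 0.1, which CD200, CD24 and LGR5 reached.

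CD200, a membrane glycoprotein that restrains immune cells through its receptor, is found at 175281088 to 175322456 on chromosome 1 of the Oar_v4.0 assembly. It had 22.5, 19.5 and 18.9 CPM (normalized by the TMM method) in the SM and 10.8, 11.8 and 11.4 CPM in the STH ewes. All SM values thus lay well above all STH values, and the spread among the STH ewes was small. The means of 20.3 ± 1.94 (SD, n = 3) and 11.3 ± 0.543 (SD, n = 3) CPM differed 1.79-fold. The log2 difference was 0.84 ± 0.16 (SE), with an adjusted p of 0.159 (0.000552 unadjusted) in edgeR's quasi-likelihood fit. CD200 had rank 52 among all genes tested when these were ordered by that p. Its adjusted p was 0.00112 by DESeq2 and 0.00564 by the likelihood ratio test. Between 332 and 881 counts stood behind each value. LOC105614192, listed on the opposite strand within CD200, had 0 counts in every ewe.

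CD24, a small lipid-anchored surface protein, lies on chromosome 8 from 30086266 to 30090226. The SM ewes had 135.8, 96.4 and 99.9 CPM, and the STH ewes 185.4, 178.4 and 173.0 CPM. SM ewe 128 stood above the other SM ewes, yet below every STH ewe. The means were 111 ± 21.8 (SD, n = 3) for SM and 179 ± 6.21 (SD, n = 3) CPM for STH, 1.62-fold higher in STH skin. The log2 difference was -0.69 ± 0.16 (SE), with an adjusted p of 0.219 (0.00246 unadjusted) in edgeR's quasi-likelihood fit. DESeq2 gave an adjusted p of 0.0154 and the likelihood ratio test one of 0.0264. With SM ewe 128 left out, the log2 difference of CD24 was -0.87 (adjusted p = 0.0172 in the quasi-likelihood fit of edgeR), and that of CD200 was 0.76 (adjusted p = 0.0380). In that fit 7.73% of all genes passed both thresholds, against 0.00% with every ewe.

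LGR5, on chromosome 3 from 107249428 to 107381055, was the only R-spondin receptor among the 8. It had 136.9, 125.3 and 103.7 CPM in the SM and 149.8, 196.4 and 156.7 CPM in the STH ewes. The gap between the breeds, from 136.9 to 149.8 CPM, was narrower than the range within either breed. The means of 122 ± 16.8 (SD, n = 3) and 168 ± 25.1 (SD, n = 3) CPM were 1.37-fold apart, with STH higher. The log2 difference of -0.46 ± 0.17 (SE) had an adjusted p of 0.255 (0.0234 unadjusted) in edgeR's quasi-likelihood fit. Neither DESeq2, with an adjusted p of 0.148, nor the likelihood ratio test, with 0.177, placed it past the threshold. The unadjusted p of the edgeR quasi-likelihood fit was over 0.05 without SM ewe 30034 (0.0537), SM ewe 30126 (0.0590) or STH ewe XW5 (0.105). It was 0.374 with the libraries scaled to basal keratinocyte genes, as described below.

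**Figure D2:**
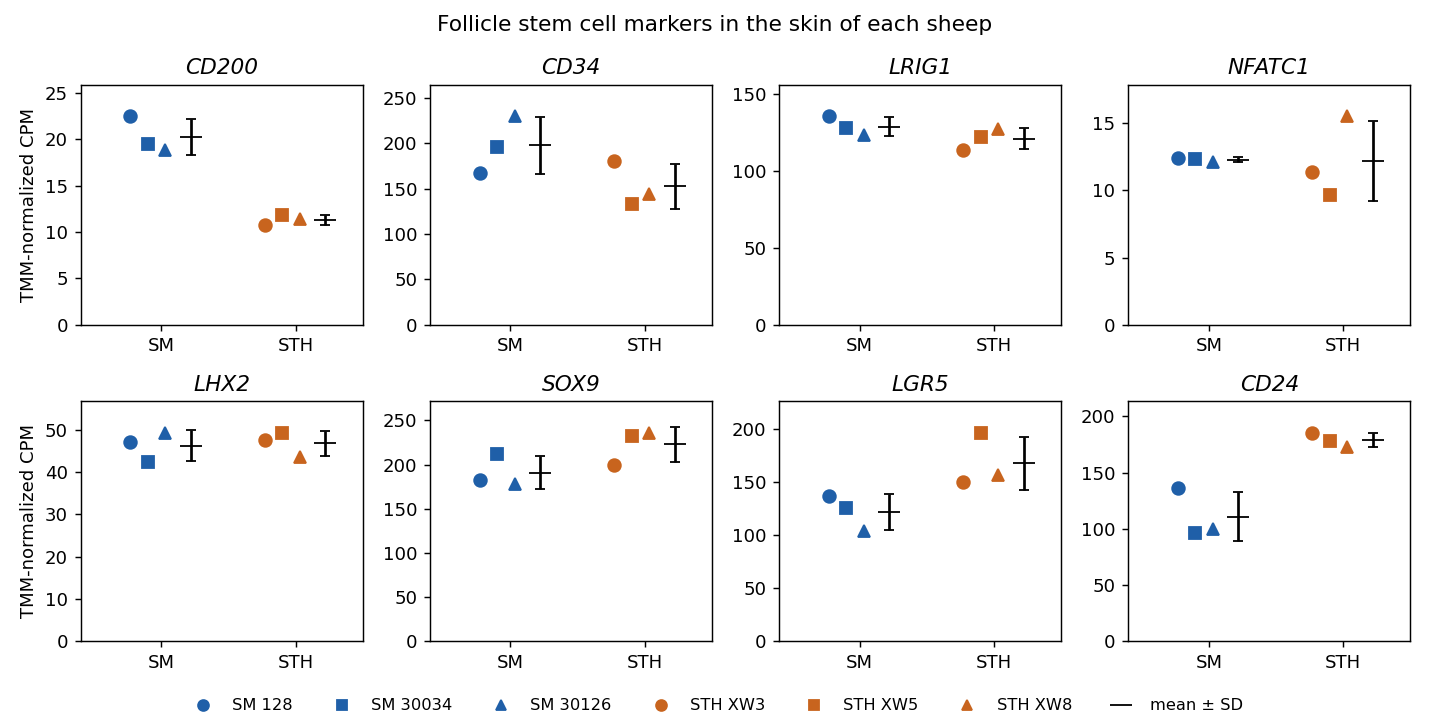
TMM-normalized CPM of the 8 markers in each of the 6 ewes, on linear axes from 0. Points are animals, and bars are the mean ± SD of each breed (n = 3). The SM ewes lie above the STH ewes for CD200 (18.9 to 22.5 against 10.8 to 11.8 CPM), the STH ewes lie above the SM ewes for CD24 and LGR5, and the breeds overlap for the other 5 genes.

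CD34, a sialomucin of bulge cells in the mouse and of endothelium and connective tissue, lies on chromosome 12 from 73507207 to 73530470. The SM ewes had 167.3, 195.8 and 230.0 CPM, and the STH ewes 180.2, 133.3 and 144.3 CPM. STH ewe XW3 lay above SM ewe 128, so that the breeds overlapped. The log2 difference was 0.37 ± 0.18 (SE), with an adjusted p of 0.292 in edgeR's quasi-likelihood fit. The unadjusted p of that fit was 0.0237 without SM ewe 128 (30.3% of all genes under 0.05) and 0.0309 without STH ewe XW3 (15.1%). Leaving out either of these ewes removes the overlap, which favours a lower p. Without any of the other ewes the p lay between 0.125 and 0.202. Of 8 endothelial genes found, VWF, CDH5 and TIE1 were higher in SM and EMCN higher in STH skin at an unadjusted p under 0.05, against 18.0% of all genes in either direction, and none of the 8 passed both thresholds. The summed CPM of the 8 ran from 575 to 725 in SM and from 373 to 603 in STH ewes. XW3 was highest of the STH ewes and 128 lowest of the SM ewes, as for CD34. The other ends differed. The sum was highest in 30034 and CD34 in 30126 among the SM ewes. Among the STH ewes the sum was lowest in XW8 and CD34 in XW5. The part of blood vessels in the level of CD34 was not tested.

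The transcription factors differed less. SOX9, which is needed to set aside the stem cells of the follicle, lies on chromosome 11 from 57720431 to 57725439. It had 182.4, 212.1 and 178.0 CPM in the SM and 200.1, 232.7 and 236.1 CPM in the STH ewes. SM ewe 30034 was above STH ewe XW3, and the log2 difference was -0.22 ± 0.14 (SE), with an adjusted p of 0.389 in edgeR's quasi-likelihood fit. LHX2, a LIM homeobox factor on chromosome 3 from 11617137 to 11636743, had 47.1, 42.3 and 49.2 CPM in the SM and 47.5, 49.1 and 43.5 CPM in the STH ewes. The breeds spanned almost the same range, with a log2 difference of -0.016 ± 0.14 (SE) and an adjusted p of 0.952 in the same fit. NFATC1, a calcineurin-dependent factor on chromosome 23 from 724804 to 787174, had 12.4, 12.4 and 12.1 CPM in the SM and 11.4, 9.66 and 15.5 CPM in the STH ewes. Its SD in STH ewes, 24.7% of the mean, was far wider than in SM ewes, 1.39%, and the log2 difference was 0.014 ± 0.21 (SE), with an adjusted p of 0.973.

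LRIG1, on chromosome 19 from 34988609 to 35102717, had 135.7, 127.8 and 123.2 CPM in the SM and 113.7, 122.3 and 127.4 CPM in the STH ewes. The breeds overlapped, and the log2 difference was 0.09 ± 0.13 (SE), with an adjusted p of 0.691 in edgeR's quasi-likelihood fit.

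**Figure D3:**
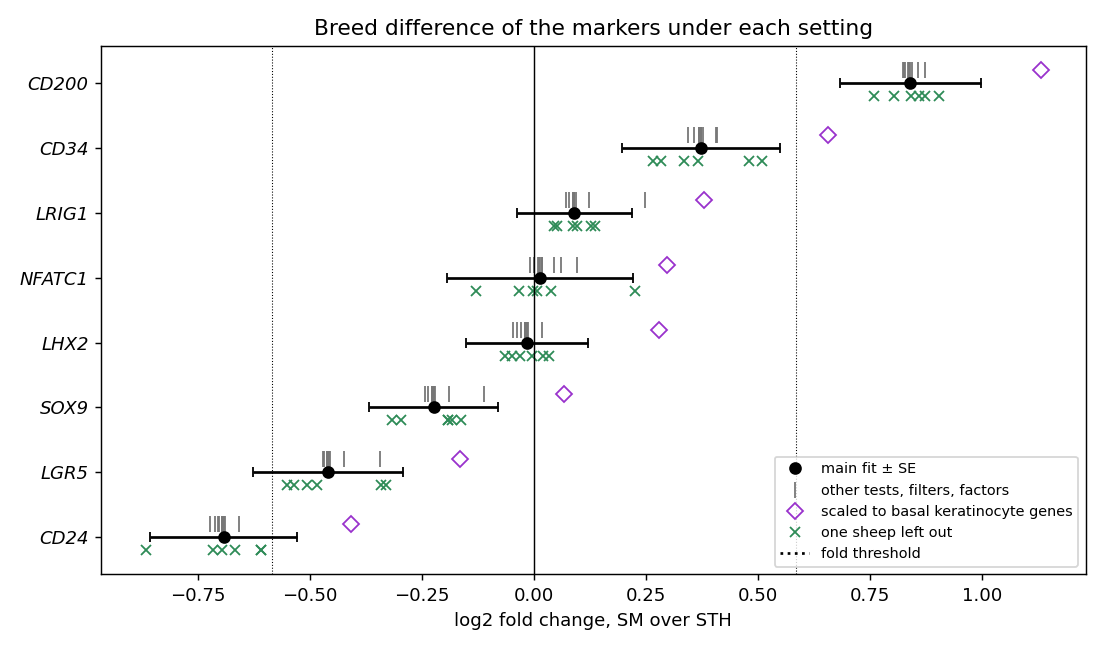
Log2 difference of each marker, SM over STH, on the horizontal axis. Black points are the main values ± SE, grey ticks other tests, filters and scaling factors, open diamonds the values scaled to basal keratinocyte genes, and green crosses the values with 1 ewe left out, while dotted lines mark the 1.5-fold threshold. CD200 (0.84) lies above the upper line, CD24 (-0.69) lies below the lower one except when scaled to basal keratinocyte genes (-0.41), and LHX2 (-0.016), NFATC1 (0.014) and LRIG1 (0.09) have main values near 0.

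The ratio of a pair of genes within a library does not depend on how the libraries were scaled. Such ratios were computed for the 28 pairs of markers after the values above had been seen. The ratio of CD200 to CD24 counts was 0.166, 0.202 and 0.189 in the SM and 0.0581, 0.0664 and 0.0658 in the STH ewes. Every SM value was above every STH value, by 2.92-fold in the geometric mean. That separation was fixed by the values above, because CD200 and CD24 were each separated, in opposite directions. The same holds for CD200 to LGR5. The gaps of CD200 (11.8 to 18.9 CPM) and CD24 (135.8 to 173.0 CPM) between the breeds were also wide in relative terms. Each exceeded the whole range of LHX2 (42.3 to 49.2 CPM) and of LRIG1 (113.7 to 135.7 CPM), so that their pairs with these genes were fixed too. The breeds did not overlap in 15 of the 28 pairs, with these included, against 23.9% of all pairs of tested genes. CD200 separated the breeds in 6 of its 7 pairs, all but that with CD34, and CD24 did so in 5 of its 7. Of the 15 pairs that hold neither CD200 nor CD24, 5 did not overlap. In each of these 5, LGR5 or SOX9 was the gene relatively higher in STH skin. LGR5 counts relative to LRIG1 were 1.01, 0.980 and 0.841 in the SM and 1.32, 1.61 and 1.23 in the STH ewes, a lower ratio in SM skin throughout. The pairs share genes and are not independent of one another. Counts of pairs with CD200 or CD24 restate in part the separation of these genes, which the study had picked from these libraries.

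**Figure D4:**
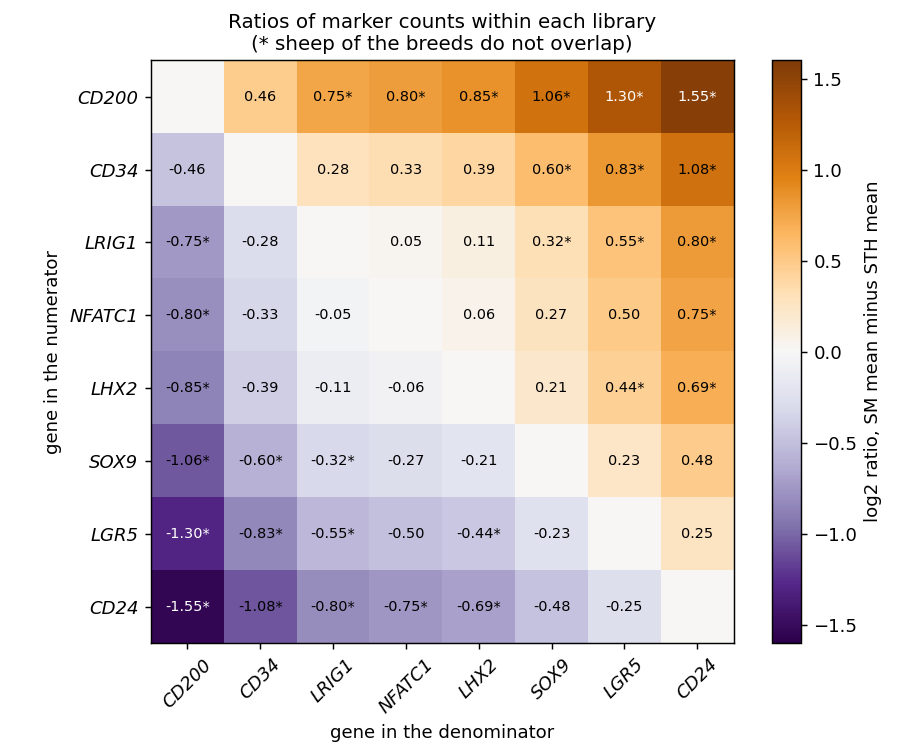
Difference between the breeds in the log2 ratio of each pair of markers, as the SM mean minus the STH mean, with the numerator in rows and the denominator in columns. Asterisks mark pairs in which the ewes of the breeds do not overlap. The difference farthest from 0 is that of CD200 to CD24, at 1.55.

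LGR6 and TBX1 were not among the symbols of the files. The entry with the gene identifier that RefSeq now gives to LGR6, a relative of LGR5 in the upper follicle, had 2, 7 and 0 counts in the SM and 4, 2 and 3 counts in the STH ewes. These are at or near a floor of 3 counts, and no comparison was made. The entry with the identifier of TBX1, a T-box factor, lies between RGS4 and RGS5 on chromosome 1 in the files but on chromosome 17 in the newer assembly ARS-UI_Ramb_v3.0, so that its identity is uncertain. It had 14.4, 8.46 and 10.4 CPM in the SM and 9.27, 13.1 and 15.8 CPM in the STH ewes. The breeds overlapped, with a log2 difference of -0.20 ± 0.27 (SE) and an adjusted p of 0.674 in edgeR's quasi-likelihood fit.

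A list of 24 further genes of the bulge, hair germ, isthmus and upper follicle was examined beside the markers, and 23 of them were found and tested. None passed both thresholds. At an unadjusted p under 0.05 there were 5, which is 21.7% against 18.0% of all genes, with 3 higher in SM and 2 higher in STH skin. The count was 2 without SM ewe 30034 (10.7% of all genes in that fit) or without STH ewe XW5 (7.34%). It was 3 with library totals alone (15.9%). The median log2 difference of the list was 0.06. FOXI3, a forkhead factor of the hair placode and germ, had 11.5 ± 3.01 (SD, n = 3) CPM in SM and 4.52 ± 0.194 (SD, n = 3) CPM in STH skin. KRT79, a keratin of cells that form the hair canal, had 877 ± 111 (SD, n = 3) and 445 ± 75.9 (SD, n = 3) CPM. FOXC1, which holds bulge cells in quiescence, had 116 ± 5.24 (SD, n = 3) and 88.2 ± 16.8 (SD, n = 3) CPM. Each of these 3 genes was higher in every SM ewe than in any STH ewe, at log2 differences of 1.35 ± 0.25 (SE), 0.98 ± 0.18 (SE) and 0.39 ± 0.16 (SE). Over the 23 genes that order held for 5, against 12.3% of all genes, and the opposite order for 2, against 13.3%. The study had picked FOXI3 and KRT79 from these libraries. These were also the 2 genes of the list that passed with DESeq2 (2.89% of all genes) and with the likelihood ratio test (2.30%). Without SM ewe 128 both passed in the quasi-likelihood fit of edgeR as well, FOXI3 at 1.55 (adjusted p = 0.0163) and KRT79 at 1.07 (adjusted p = 0.0173), in addition to BMPR1A. In that fit 7.73% of all genes passed.

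BMPR1A, a receptor for BMP ligands, and NFIB, a chromatin regulator of the bulge, were the 2 genes of this list with higher levels in STH skin at that p. BMPR1A had 115, 77.7 and 49.9 CPM in the SM and 135, 159 and 120 CPM in the STH ewes. SM ewe 128 lay close to the STH ewes. With all ewes the log2 difference was -0.77 ± 0.28 (SE) and the adjusted p 0.255, without SM ewe 128 they were -1.11 and 0.0231, and without SM ewe 30126 they were -0.50 and 0.429 in edgeR's quasi-likelihood fit. NFIB was at -0.45 ± 0.18 (SE) on that scale (-0.30 without SM ewe 30126), and its breeds overlapped. KRT15, a keratin of bulge cells and the most abundant of the list, overlapped between the breeds, with 1130 ± 158 (SD, n = 3) and 1283 ± 156 (SD, n = 3) CPM. ITGA6, an integrin of basal cells, had a log2 difference of -0.43 ± 0.23 (SE), and PRDM1, a repressor in sebaceous and upper follicle cells, one of -0.017 ± 0.13 (SE).

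Of 25 ligands, receptors and partners of the markers, 23 were found and 22 tested. None passed both thresholds, 2 had an unadjusted p under 0.05, ERBB2 and PPP3CA, which is 9.09% against 18.0% of all genes, and the median log2 difference was -0.060. That count moved with single libraries, to 8 without SM ewe 128 (30.3% of all genes in that fit). Without STH ewe XW3 it was 4 (15.1%), without STH ewe XW5 it was 0 (7.34%), and under basal keratinocyte scaling it was 6 (29.1%). The share of all genes moved as well, so that the count places the list neither above nor below that share. In the R-spondin pathway of LGR5, the related receptor LGR4 had 91.4 ± 22.2 (SD, n = 3) CPM in SM and 118 ± 1.62 (SD, n = 3) CPM in STH skin. The STH ewes lay above the SM ewes for LGR4 as for LGR5, with a log2 difference of -0.37 ± 0.18 (SE) and an adjusted p of 0.310 in edgeR's quasi-likelihood fit. The ligand RSPO1 stood at 8.79 ± 0.446 CPM (SD, n = 3) against 6.65 ± 1.54 CPM (SD, n = 3). Its log2 difference was 0.40 ± 0.22 (SE), with every SM ewe above every STH ewe. RSPO3 was at -0.38 ± 0.34 (SE) on that scale, RSPO4 was under 1.30 CPM in every ewe, and RSPO2 had too few counts to be tested. ZNRF3 and RNF43, ligases that remove WNT receptors, had log2 differences of 0.41 ± 0.20 (SE) and -0.11 ± 0.16 (SE). None of these 6 tested pathway genes had an unadjusted p under 0.05.

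Of the receptors that LRIG1 restrains, ERBB2 had 146 ± 18.1 (SD, n = 3) CPM in SM and 116 ± 6.24 (SD, n = 3) CPM in STH skin. Its log2 difference was 0.33 ± 0.14 (SE), with an adjusted p of 0.276 (0.0476 unadjusted) in edgeR's quasi-likelihood fit. ERBB3 and EGFR, both abundant, overlapped between the breeds, at 0.08 ± 0.14 (SE) and 0.018 ± 0.13 (SE). PPP3CA, a catalytic subunit of calcineurin, the phosphatase that activates NFATC1, had 73.9 ± 15.8 (SD, n = 3) and 104 ± 6.83 (SD, n = 3) CPM. Its log2 difference was -0.50 ± 0.18 (SE), and -0.32 without SM ewe 30126, while that of NFATC1 was 0.014.

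**Figure D5:**
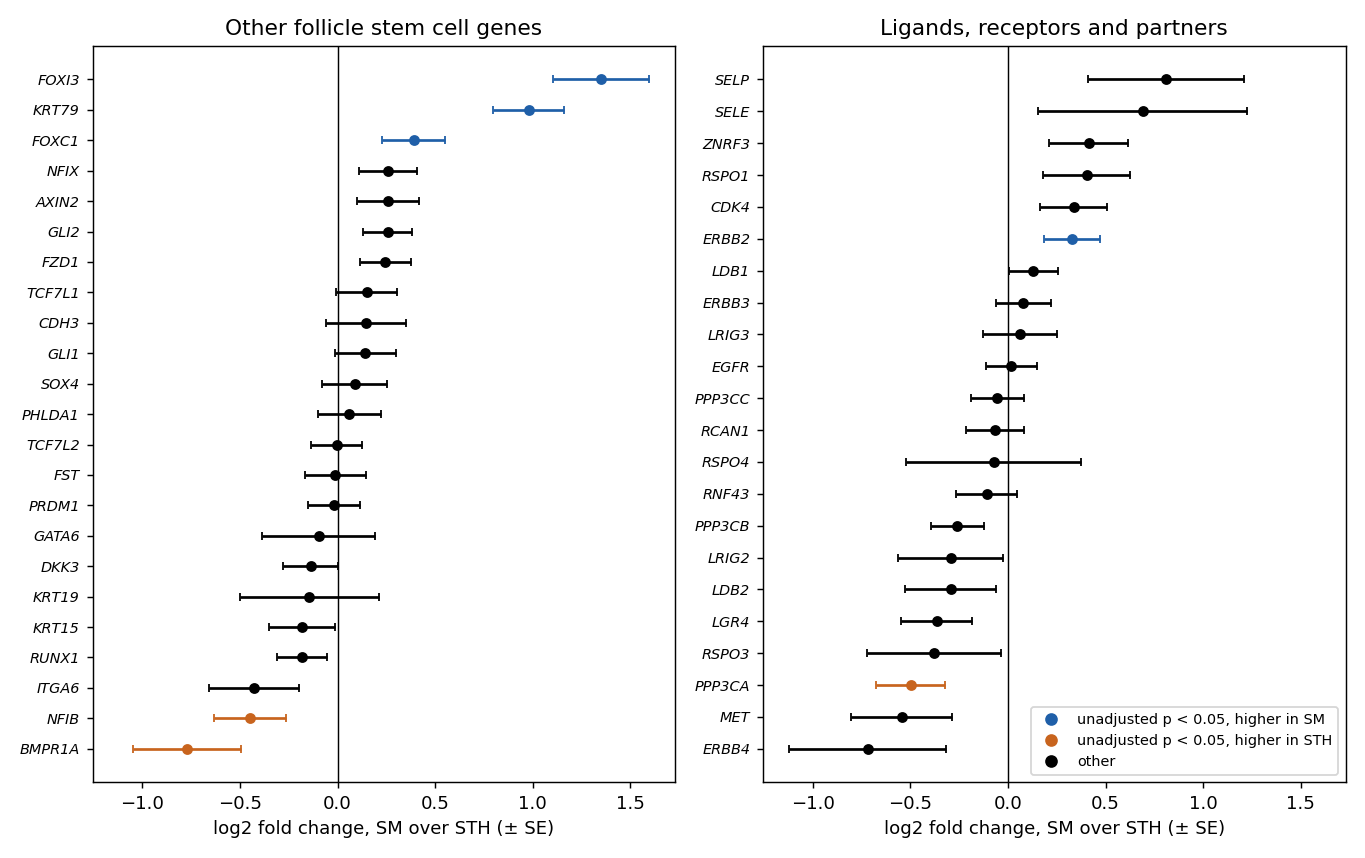
Log2 difference, SM over STH, ± SE for the 23 tested genes of the further follicle list and the 22 tested ligands, receptors and partners. Coloured points have an unadjusted p under 0.05. FOXI3 (1.35) and KRT79 (0.98) lie farthest to the right among the follicle genes, and ERBB2 (0.33) and PPP3CA (-0.50) are the coloured points among the partners.

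The genes that followed each marker most closely over the 6 ewes were sought among all tested genes that varied at least as much as the marker. Likeness was the mean absolute difference of the centred log2 CPM. For LGR5 these were TMEM19, at 0.020, and PPP6R3, at 0.036. TMEM19 lies 99701 bases beyond the end of LGR5 on the same strand. Between them lie ZFC3H1 and THAP2, 25031 and 75118 bases from LGR5. The log2 differences of ZFC3H1, THAP2 and TMEM19 were -1.02 ± 0.40 (SE), -1.11 ± 0.37 (SE) and -0.47 ± 0.18 (SE). All 3 neighbours were, like LGR5, higher in STH skin at an unadjusted p under 0.05, as were 10.8% of all genes. ZFC3H1 and THAP2 did not follow LGR5 closely over the ewes, at mean differences of 0.475 and 0.389. In likeness to LGR5 they ranked 12289 and 9678 among all genes tested. None of the neighbours of CD200 within 100000 bases had enough counts to be tested, and those of CD24 with enough, BEND3 and C8H6orf203, had log2 differences of 0.020 ± 0.25 (SE) and -0.11 ± 0.17 (SE).

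The other markers had their closest genes elsewhere. CD200 was followed by LOC105606766, at a mean difference of 0.058, and by MASP1, at 0.061. CD24 was followed by LOC101120060, at 0.053, and by ARHGEF33, at 0.069. Of these, MASP1 had a mean of 20.4 CPM. LOC105606766, LOC101120060 and ARHGEF33 had low means of 1.38, 1.81 and 0.304 CPM. CD34 was nearest to HNRNPA0, at 0.027, and TRIM28, at 0.030. SOX9 was nearest to PERP, at 0.037, and MAP6D1, at 0.041. For LHX2 the genes were SMN2, at 0.023, and PDPK1, at 0.034, and for LRIG1 they were ANKRD11, at 0.032, and VPS53, at 0.035. NFATC1 was nearest to FOXC2, at 0.038, and ISM1, at 0.052.

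Markers of other skin cells were examined by the same test, in which none of them passed both thresholds. At an unadjusted p under 0.05, reached by 7.21% of all genes with SM higher and by 10.8% with STH higher, their counts were as follows. All 5 suprabasal keratinocyte genes found (KRT1, KRT10, IVL, DSG1 and DSC1) were higher in STH skin, and their summed CPM was 2329 to 3219 in SM and 3958 to 7176 in STH ewes. Within the SM ewes that sum was highest in 128, as was CD24. Within the STH ewes the order was opposite, with the sum lowest and CD24 highest in XW3. In XW8 the sum was highest and CD24 lowest of the STH ewes. Of 7 sebaceous gland genes, 6 were higher in SM skin at that p, with sums of 1990 to 3149 against 1396 to 1540 CPM. For the 6 basal keratinocyte genes the sums overlapped, at 8896 to 11036 and 10723 to 15317 CPM, with 2 genes higher in STH skin. Of 5 smooth muscle genes 4 were higher in STH skin, and the sums were 772 to 918 and 1298 to 1516 CPM. In either direction, against 18.0% of all genes, that p was reached in the lists for hair shaft and inner root sheath (by 1 of 5 tested), dermal fibroblasts (2 of 7), leukocytes (2 of 7), adipocytes (1 of 4), skeletal muscle (1 of 4), sweat gland (0 of 4), Schwann cells (0 of 5) and melanocytes (0 of 3). The part of these cell types in the values of CD200, CD24 and LGR5 was not tested.

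Scaling the libraries to 7 basal keratinocyte genes, the 6 above and ITGA6, in place of TMM, moved the median log2 difference of all genes to 0.31. Such a change shifts all genes nearly alike, so that values relative to that median return nearly those of the main fit by construction. They were 0.82 for CD200, -0.72 for CD24, -0.47 for LGR5, -0.24 for SOX9 and -0.028 for LHX2, and are no check on the scaling. Without the subtraction CD200 was at 1.13, CD24 at -0.41 and LGR5 at -0.17. In that quasi-likelihood fit of edgeR the unadjusted p of CD24 was 0.0666 and that of LGR5 0.374. CD200 (9.07e-05) and CD34 (0.0170) were under 0.05, as were 29.1% of all genes. SOX9 and LHX2 were above 0 on that scale, and CD200 passed both thresholds, as did 0.196% of all genes.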

How the data were processed

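Polyadenylated RNA of 6 skin samples, 1 library per ewe, was aligned by the authors against Oar_v4.0 in CLC Genomics Workbench. Their total counts per gene were deposited as whole numbers, not normalized. The RPKM values deposited by the authors gave the levels per length, and the deposited TPM values served only to check that order. The deposited CPM, a score scaled to an effective library size, was left aside. Whether counting used strand is not stated.

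Breeds follow the strain label. A gene entered the tests with 10 counts or more in 3 ewes or more, 15320 in all. The main test was the quasi-likelihood test of edgeR 4.0.16 (R 4.3.3, TMM factors, default settings, breed as sole term). The SE is the log2 difference over the square root of F. Alternatives were DESeq2 1.42.0, limma-voom (limma 3.58.1), other edgeR tests, scaling factors and filters, a length correction (loess, span 0.5) and each ewe left out. Each test with all ewes was first run on simulated counts, and the fits with an ewe left out were not. The planted changes were larger than any marker difference here, so that the simulation is no check on differences of this size. P-values measure the spread between these ewes, and count floors cover counting error only.

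The members and lists were chosen with earlier results of these data known. The genes named are the members, each gene of the 2 further lists with an unadjusted p under 0.05, the 3 next most abundant, and the 2 closest in pattern to each member. A gene of the partner list is not reported here. R-spondin pathway, cell type and neighbouring genes were named after their values had been seen. Missing symbols were sought by gene identifier in a RefSeq table of ARS-UI_Ramb_v3.0, which held 21630 of the identifiers.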

Additional observations from a re-analysis of the deposited data

How the results depend on the processing

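No paired analysis was possible because the labels number the ewes as individuals and share no number between the breeds. Past both thresholds there were 0 of the 8 markers in the main analysis, 2 with DESeq2, 2 with the likelihood ratio test, 1 (CD200) when scaled to basal keratinocyte genes, and from 0 to 2 with single ewes left out, the 2 being without SM ewe 128. Of the 23 further follicle genes, 0 passed in the main analysis, and 2 each with DESeq2, the likelihood ratio test and basal keratinocyte scaling. From 0 to 3 passed with single ewes left out, the 3 being without SM ewe 128. The shares of all genes past both thresholds were 0.00% in the main analysis, 2.89% with DESeq2 and 2.30% with the likelihood ratio test. They were 0.196% with basal keratinocyte scaling and 7.73% without SM ewe 128. CD200, CD24, LGR5, CD34 and LRIG1 kept their direction in every alternative run. With basal keratinocyte scaling, however, CD24 and LGR5 no longer had an unadjusted p under 0.05. LHX2 turned to 0.018 with upper quartile factors and 0.28 with basal keratinocyte scaling, and ranged from -0.065 to 0.034 with single ewes left out. SOX9 turned to 0.066 with basal keratinocyte scaling. NFATC1 turned to -0.0078 with library totals alone and to -0.00059 with a filter at 50 counts, and ranged from -0.13 to 0.22 with single ewes left out. Separated neighbours in the order of levels were 3 in SM and 4 in STH skin, and from 4 to 5 and from 4 to 6 with single ewes left out. For a given pair, leaving out an ewe can only keep or add separation, so that this rise is no check. In STH skin CD34 moved above SOX9 without XW5 or without XW8, and LRIG1 above LHX2 without XW3 or without XW5. Apart from that rise, the cause of these changes was not tested. The spread between 3 ewes a breed and, for LGR6, the depth limited what could be shown.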
